A study of Mus musculus with 6 samples.

Results

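ATF3 binding with HDL + CpG was compared with binding with HDL alone at 905 genomic regions in mouse bone marrow-derived macrophages (BMDMs). The regions are the ChIP-seq peaks called in WT cells given HDL + CpG that overlap a peak called in WT cells given HDL by at least 1 bp, where neither peak centre lies on an annotated repeat. They are 905 of the 3790 peaks of the HDL + CpG list, and 905 of its 1892 peaks off repeats (47.8%). Their partners are 903 of the 2817 HDL peaks off repeats (32.1%), since some HDL peaks overlap more than 1 member. The nearest transcription start sites belong to 787 genes.

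The WT cells came from Atf3 +/+ mice and the KO cells from Atf3 -/- mice, in both cases on the C57BL/6 background, and the labels give an age of 6 to 8 weeks. Marrow was grown for 6 days with 40 ng/ml M-CSF. The HDL groups received 2 mg/ml high-density lipoprotein for 6 h. The HDL + CpG groups received the same dose for 6 h and then 100 nM CpG for 4 h, so every cell compared here had seen HDL, and the 2 conditions differ in the CpG and in the added 4 h. Unstimulated cells had neither agent. ATF3-bound chromatin was pulled down with a rabbit polyclonal antibody (2.5 µg), and fragments of 150 to 250 bp were sequenced. The biological replicates of each group had been combined before peak calling, so each of the 4 groups compared is 1 library, of 37930363 reads (WT, HDL), 49467421 reads (WT, HDL + CpG), 66061648 reads (KO, HDL) and 47504605 reads (KO, HDL + CpG). No spread between mice could be computed, no difference below has a replicate check, and the 95% intervals given with single ratios are exact and cover counting error alone. The effect of CpG and a difference between 2 libraries cannot be told apart in these data. The lists hold no RNA values, so the macrophage label was not checked against marker expression.

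ATF3 belongs to the basic leucine zipper (bZIP) proteins. It binds DNA as a dimer, at AP-1 sequences together with JUN proteins and at the related cyclic AMP response element (CRE), and C/EBP partners such as CHOP (Ddit3) give a composite site. It is induced by many stresses and is known in macrophages as a brake on inflammatory genes. HDL carries cholesterol and can induce ATF3 in macrophages, and CpG oligonucleotides stimulate Toll-like receptor 9, which drives NF-kB, AP-1 and interferon signalling.

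AP-1 letters stood near the centre of shared peaks that differed in either direction. TGACTCA, searched on both strands within 100 bp of the peak centre, was found in 272 of the 905 regions (30.1%). The share was 3.87% and 2.43% in windows of the same length shifted 1000 bp to either side, 29.8% in 816 HDL + CpG peaks off repeats that overlapped no HDL peak, 28.4% in all 1892 off repeats, and 16.6% over all 3790 HDL + CpG peaks. The CRE letters TGACGTCA were found in 10 shared regions (1.1%), against 1.27% of the 1892 HDL + CpG peaks off repeats and 0.66% of all HDL + CpG peaks. TGATGCAA, the CHOP-C/EBP letters, was found in 45 (4.97%), against 3.28% off repeats and 1.95% of all. The sequences below are the plus strand of mm9, 5′ to 3′, with the match in capitals, where TGAGTCA and TTGCATCA are the AP-1 and CHOP-C/EBP letters read from the other strand. The first pair comes from peaks with less WT signal with HDL + CpG, and the next 3 from peaks with more. The last pair comes from Cd36, where both conditions were close, and Ddit3. The Ddit3 stretch shows the CHOP-C/EBP letters, and AP-1 letters of the same peak lie outside the stretch, at chr10:126727607-126727613.
Vcan (nearest start site), intron, chr13:90028826-90028892: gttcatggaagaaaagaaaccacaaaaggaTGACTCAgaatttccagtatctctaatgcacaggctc
Jarid2, intergenic, chr13:44755353-44755419: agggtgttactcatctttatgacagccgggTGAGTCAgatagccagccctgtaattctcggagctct
Ptk2b, intron 1, chr14:66842649-66842715: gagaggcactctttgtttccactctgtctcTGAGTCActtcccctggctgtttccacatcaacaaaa
Bmf, later intron, chr2:118366712-118366778: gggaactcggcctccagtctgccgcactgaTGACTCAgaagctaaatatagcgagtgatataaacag
Vav3, intergenic, chr3:109058005-109058071: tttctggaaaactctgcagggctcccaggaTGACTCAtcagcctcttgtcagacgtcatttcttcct
Cd36, intron 1, chr5:17385910-17385976: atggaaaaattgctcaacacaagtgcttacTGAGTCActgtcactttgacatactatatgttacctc
Ddit3, promoter, chr10:126727518-126727585: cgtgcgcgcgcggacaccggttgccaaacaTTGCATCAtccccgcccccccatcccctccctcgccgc

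At most shared regions ATF3 signal in WT cells was slightly lower with HDL + CpG than with HDL. Signal is given as tags per kb, the reads in a peak scaled to a library of 10000000 reads and divided by the peak's width in its own list. The median WT density was 16.6 tags per kb with HDL and 14.7 tags per kb with HDL + CpG. The median ratio of HDL + CpG over HDL was 0.888 (log2 -0.17), with quartiles of -0.43 and 0.06 on the log2 scale, and 618 peaks lay below 1 and 287 above. The single ratios ran from 0.335 to 1.94. In the KO libraries, which hold no ATF3, the median ratio at the same regions was 0.99 (log2 -0.01), with median densities of 6.89 and 6.72 tags per kb.

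With a fold of 1.5 as the call, since no test was possible, 17 shared peaks had more WT signal with HDL + CpG (1.88%) and 136 had less (15%). Over all 2385 shared peaks, on and off repeats, these shares were 1.89% and 20%. The same fold applied to the KO libraries called 187 members higher (20.7%) and 183 lower (20.2%), against 38.2% and 11.2% over all shared peaks. Thus the KO tags, with medians of 38 and 26 reads a peak, passed the fold more often in either direction than the WT tags, with 53 and 59 reads. Members had to be called in both WT lists, which leaves out regions where WT signal was high in 1 condition alone, whereas KO tags played no part in choosing them. Relative to the WT median shift, 48 peaks lay at least 1.5 times above and 59 below, so lower calls made up 55.1% of the calls after centring and 88.9% before it.

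The SD of the log2 ratio was 0.377 in WT, where the read counts alone give 0.272, and 0.791 in KO, where they give 0.393. The interval of the WT ratio lay above 1 at 31 peaks and below 1 at 152. The interval of the KO ratio lay above 1 at 155 peaks and below 1 at 131. Median peak widths were 842 bp (HDL) and 824 bp (HDL + CpG), with a median overlap of 721 bp. The median distance between centres was 57.5 bp. Of the 905 peaks, 626 had similar widths in both lists, and at the rest the call can depend on the division by width. Without that division, 50 peaks were called higher in WT and 202 lower. Over the 905 peaks, the Spearman correlation of the log2 WT ratio was -0.103 with the log2 width ratio and 0.006 with the GC content of the central 201 bp. Over the 904 peaks with KO reads in both conditions, the Spearman correlation of the log2 WT ratio with the log2 KO ratio was -0.035. These points share 4 libraries and their depths.

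**Figure D1:**
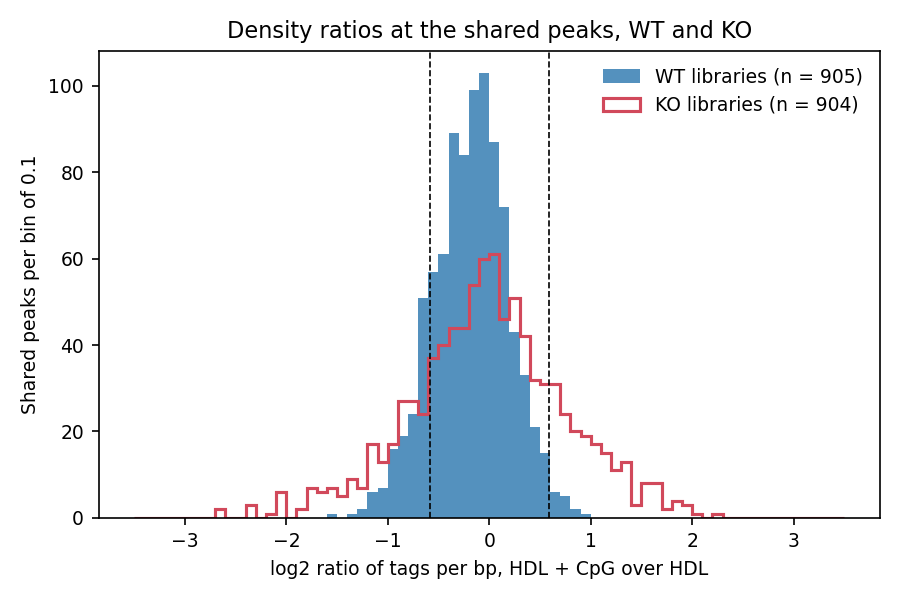
Distribution of the log2 ratio of tags per bp, HDL + CpG over HDL, over the shared peaks (bins of 0.1). The filled bars are the WT libraries and the outline the KO libraries, and the dashed lines mark 1.5-fold either way. The WT ratios are narrower (SD 0.377) than the KO ratios (SD 0.791) and centre below 0.

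The 7 largest WT ratios, among 630 peaks with at least 30 WT reads in each condition and a KO-corrected peak in at least 1 of them, lay between 1.59 and 1.78. AP-1 letters were held by 5 of the 7. Among all members with a KO-corrected peak in at least 1 condition, 246 held AP-1 letters and 405 did not. Because the 7 peaks were picked by their ratio, the values are a description.
The peak 10.3 kb from a start site of Ptk2b, which encodes the focal adhesion kinase relative PYK2, had 12.8 WT tags per kb with HDL and 21.6 with HDL + CpG (ratio 1.69, 95% interval 1.16 to 2.51), while KO tags stood at 8.27 in both. WT tags were thus above KO tags in both conditions, by 1.54 and 2.61 times, and another pair of Ptk2b peaks in the first intron had ratios of 0.945 and 1.07.
Bmf, a pro-apoptotic BH3-only protein, had a later-intron peak with 10.6 and 17.9 WT tags per kb (ratio 1.68, interval 1.07 to 2.69) and 4.73 and 3.27 KO tags per kb. The peak 85.5 kb upstream of Vav3, a guanine nucleotide exchange factor, had 14.9 and 24.9 WT tags per kb (ratio 1.67, interval 1.16 to 2.42) against 5.32 and 6.64 in KO. At E230029C05Rik the WT ratio of 1.78 (interval 1.245 to 2.56) came with KO tags that went the other way, from 9.78 to 3.09 tags per kb, so that WT over KO was 1.43 with HDL and 8.03 with HDL + CpG.
The remaining ratios of the 7 were 1.62 at Plxna2, a semaphorin receptor, 1.61 at Fgfr1, a fibroblast growth factor receptor, and 1.59 at Egr2, a zinc finger factor of the early growth response family. KO tags per kb at Plxna2, Fgfr1 and Egr2 were also higher with HDL + CpG, with KO ratios of 1.41, 1.3 and 1.41. The interval of the WT/KO ratio of ratios included 1 at all 3. The Egr2 peak was called 797 bp wide with HDL and 523 bp wide with HDL + CpG. Its tags per peak, not divided by width, were 11.6 and 12.13 in WT, and 3.18 and 2.95 in KO.

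Among the same 630 peaks, the 8 smallest WT ratios lay between 0.335 and 0.456, and 3 of the 8 peaks held AP-1 letters. The smallest was in an intron 147 kb upstream of the start site of Vcan, the gene of the matrix proteoglycan versican, with 28.6 WT tags per kb with HDL and 9.56 with HDL + CpG (interval 0.22 to 0.497). KO tags there were 7.59 and 9.08 tags per kb, so the WT signal stood 3.77 times above KO with HDL and 1.05 times with HDL + CpG. In unstimulated WT cells a called peak at this region held 17.3 tags per kb.
Near Jarid2, a cofactor of Polycomb repressive complex PRC2, WT tags were 32.9 and 12.7 tags per kb (ratio 0.385, interval 0.271 to 0.545). KO tags were lower by a like factor there (9.08 and 4.33 tags per kb), and the ratio of the WT/KO values was 0.809 with an interval of 0.411 to 1.62. The call at Jarid2 thus depends on whether KO tags are taken into account.
Herpud1, a component of endoplasmic reticulum-associated degradation that the unfolded protein response induces, had a promoter peak 0.277 kb upstream of the start site with 25.1 and 11.4 WT tags per kb (ratio 0.456, interval 0.306 to 0.669) and 8.29 and 7.64 KO tags per kb. The peak nearest Opa1, a mitochondrial fusion GTPase, had 31.4 and 14.1 WT tags per kb, and its KO tags went from 9.34 to 16.6. The peak nearest Niacr1, the niacin receptor, had 33.9 and 15.4 WT tags per kb (ratio 0.456), with KO tags of 14.8 and 9.64. Dclk2, a doublecortin-like kinase, had 28.9 and 12.9 WT tags per kb and still stood 2.16 times above KO with HDL + CpG, and 4930479D17Rik had 23.1 and 10.5. The eighth was Kcnh1, a potassium channel gene whose peak held 473 and 200 WT tags per kb and is described with the very high regions. The Kcnh1 peak was 686 bp wide with HDL and 982 bp wide with HDL + CpG, with 324 and 196 WT tags per peak.

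**Figure D2:**
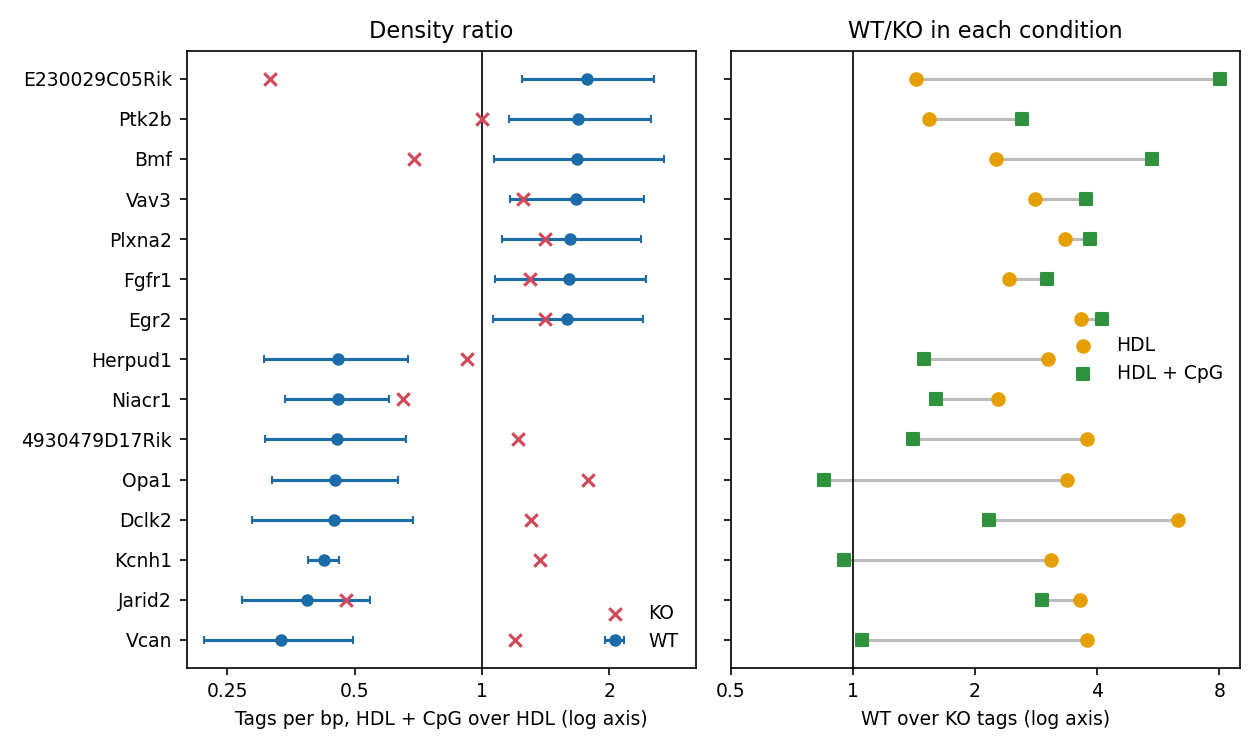
The 7 largest and 8 smallest WT density ratios among the 630 shared peaks with a KO-corrected peak and at least 30 WT reads in each condition. On the left, circles are WT ratios with exact 95% counting intervals and crosses are KO ratios; on the right, WT over KO tags in HDL (circles) and HDL + CpG (squares). At Vcan, Opa1 and Kcnh1 the WT/KO value with HDL + CpG was at most 1.05, and at E230029C05Rik it was 8.03.

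Dividing WT by KO tags within each condition removed the peak width and gave more calls in each direction than the WT tags did. The median WT/KO value of the members was 2.44 with HDL and 2.16 with HDL + CpG, and 612 and 491 peaks respectively reached 2, of which 397 did so in both conditions. The ratio of the WT/KO values, HDL + CpG over HDL, had a median of 0.928 and was at least 1.5 at 146 peaks (16.1%) and at most 1/1.5 at 254 (28.1%). Over all 2385 shared peaks the shares were 8.85% and 47%, with a median ratio of 0.707. Its interval lay above 1 at 60 members and below 1 at 168, and at 1 member no interval was computed because a KO count was 0. On the 1480 shared peaks where either list names a repeat, the KO ratio had a median of 1.47 and the WT ratio a median of 0.812.

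KO-implemented normalization (KOIN) calls peaks in WT tags against the matched KO library instead of without it. As the paper describes it, KOIN also drops peaks called in KO as well, and peaks with WT tags under 2 times the KO tags. Of the 905 members, 316 (34.9%) overlapped a KOIN peak in both conditions, 222 (24.5%) with HDL only, 113 (12.5%) with HDL + CpG only and 254 (28.1%) in neither. These classes were made by the authors from the same libraries, so what follows is a description. The WT, KO and WT/KO values of a class all follow in part from the KOIN rule itself, which sets WT tags against KO tags.
Of all members, 1.88% were called higher in WT and 15% lower. Peaks kept by KOIN in both conditions had a median of 17 WT tags per kb with HDL and 14.7 with HDL + CpG (median ratio 0.878). Of these, 6 were called higher and 41 lower (1.9% and 13%), and median WT/KO values were 3.03 and 3.1. Peaks kept with HDL only had a median WT ratio of 0.762 and a median KO ratio of 1.54, with 2 called higher and 71 lower in WT (0.901% and 32%). Peaks kept with HDL + CpG only had a median WT ratio of 1.03 and a median KO ratio of 0.606, with 3 called higher and 5 lower in WT (2.65% and 4.42%). In both of these classes the KO tags differed more between the conditions than the WT tags: the median log2 KO ratio was 0.62 and -0.72, against -0.39 and 0.04 for WT.  Peaks kept in neither had a median WT ratio of 0.967, and their median KO densities of 12.9 and 13.7 tags per kb were the highest of the 4 classes.
AP-1 letters were present in 42.7% of the peaks kept in both, 25.7% of those kept with HDL only, 47.8% of those kept with HDL + CpG only and 10.2% of those kept in neither.

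**Figure D3:**
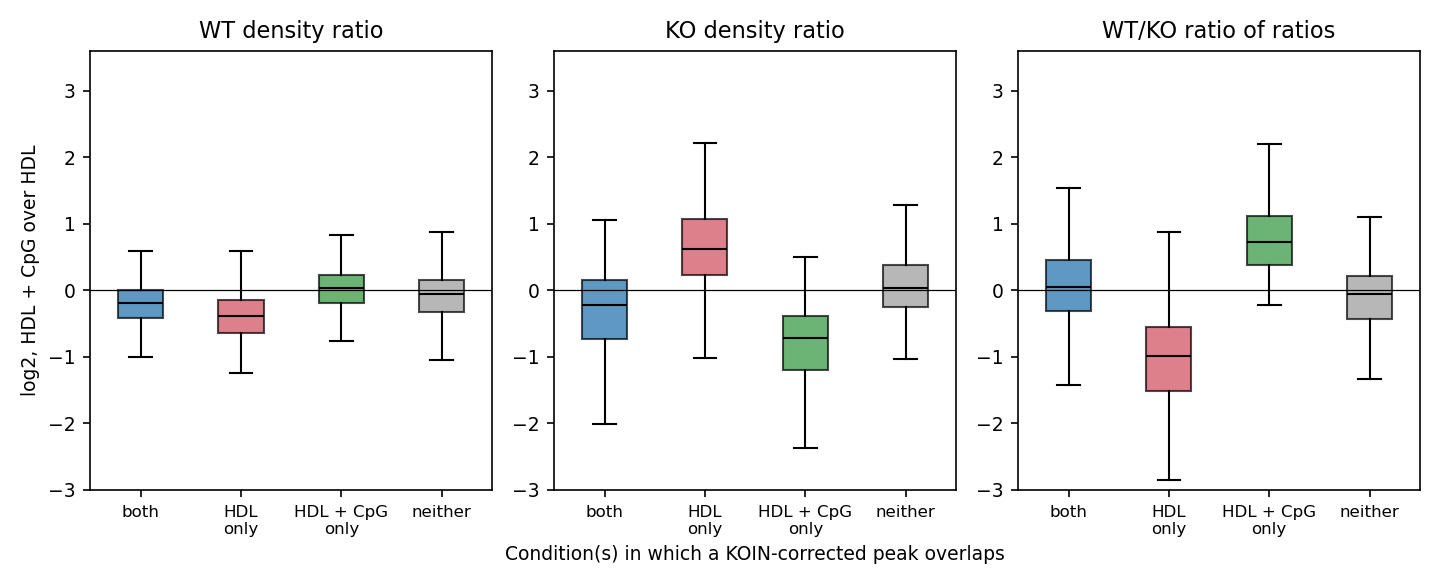
Log2 ratio of HDL + CpG over HDL for WT tags per bp, KO tags per bp and WT/KO, by the condition(s) in which a KOIN peak overlaps (n = 316, 222, 113 and 254). Boxes span the quartiles with the median as a line, whiskers reach the farthest value within 1.5 times the box height, and points beyond are not drawn. The KO boxes of the HDL only and HDL + CpG only classes lie farther from 0 (medians 0.62 and -0.72) than the WT boxes (medians -0.39 and 0.04).

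A small group of regions held far more tags than the rest. Of the 905, 54 had at least 200 KO reads in both conditions, a limit chosen after the values had been seen, and they fell into 2 patterns. At 42 of them WT over KO with HDL was under 2, and the median WT ratio was 1.03 and the median KO ratio 0.973. Rn45s, the ribosomal RNA precursor, had 433 and 411 WT tags per kb and 351 and 346 KO tags per kb, the region near Col19a1 142 and 159 in WT and 153 and 146 in KO, and the region near B020014A21Rik 73.9 and 82.7 in WT and 91.8 and 82.6 in KO. The region near Gm16501 on chromosome Y had 81.2 and 83.6 in WT and 89.8 and 87.8 in KO. Tags in cells without ATF3 were thus about as high as in WT at these 4 in both conditions. Rn45s has many near-identical copies in the genome, among which short reads cannot be placed with certainty.
The other 12 had a WT/KO value of at least 2 with HDL, by which they were set apart. Their median WT/KO value was 3.05 with HDL and 1.01 with HDL + CpG. The region near G530011O06Rik on chromosome X had 1331 WT tags per kb with HDL and 855 with HDL + CpG (ratio 0.642, interval 0.617 to 0.669), and its KO tags went from 442 to 842. The region near Chst2 had 772 and 496 WT tags per kb and 203 and 522 KO tags per kb. Kcnh1 had 154 and 210 KO tags per kb, the region near Barhl2 336 and 194 in WT and 110 and 181 in KO, and Gm5506 438 and 264 in WT and 142 and 264 in KO. At these 5, WT exceeded KO by at least 3.01 times with HDL, and WT and KO lay within 1.07 times of each other with HDL + CpG. They fill 5 of the 6 places for the highest mean WT density among members with a KOIN peak, and all 5 were KOIN peaks with HDL only. The remaining place belonged to a region 251 kb upstream of Fat1, an atypical cadherin, with 148 and 147 WT tags per kb against 11.8 and 10.2 in KO, which was kept in both conditions. Without the 54 regions the median WT ratio was 0.881, with 17 peaks called higher and 128 lower.

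**Figure D4:**
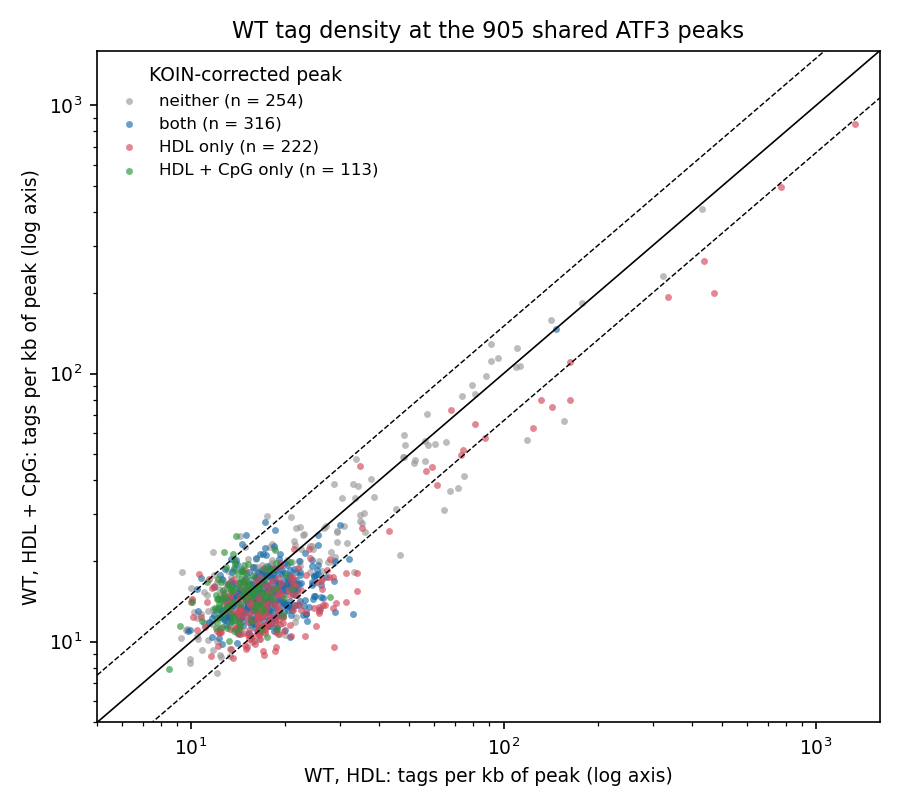
WT tags per kb with HDL (x axis) and HDL + CpG (y axis) at the 905 shared peaks, both on log axes, coloured by the condition(s) with a KOIN peak. The solid line is equality and the dashed lines are 1.5-fold. The 5 regions of highest density kept with HDL only lie below equality, from 1331 and 855 tags per kb downward. Of the grey regions of high density, those near Col19a1 and B020014A21Rik lie near equality. Those at Tas2r134 and Rfx4 lie below the lower dashed line.

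By location, median WT ratios lay between 0.852 and 0.924. The 445 intergenic peaks had a median WT ratio of 0.878, the 213 in later introns 0.907, the 126 in first introns 0.892, the 79 at promoters 0.924 and the other 42 a median of 0.852. The calls at promoters were 1 higher and 11 lower (1.27% and 13.9%). In first introns, 3 were called higher and 16 lower (2.38% and 12.7%). Of all members, 1.88% were called higher and 15% lower, so both locations were near that share. Among 13 peaks that the annotation places in a CpG island, 0 were called higher and 1 lower (7.69%). WT over KO at promoters had a median of 2.28 with HDL and 1.89 with HDL + CpG, and in first introns 2.56 and 2.61. Of the 6 promoter peaks with the most WT reads, 5 overlapped no KOIN peak. These were Crebzf, a bZIP protein (111 and 124 WT tags per kb), Speer7-ps1 (57.4 and 54.1), Tas2r134, a bitter taste receptor (156 and 66.6), Fanci, a Fanconi anaemia protein (36.1 and 25.6), and Snord116l1 (12.7 in both). The sixth, 0.118 kb upstream of a G530011O06Rik start site, had 25.5 and 23 WT tags per kb against 2.21 and 3.03 in KO and was kept in both.
Peaks with AP-1 letters had a median WT ratio of 0.892 and those without 0.888, a difference of medians of 0.01 on the log2 scale. The median KO ratio was 0.893 with the letters and 1.03 without, and the ratio of WT/KO values was at least 1.5 at 71 of the 272 peaks with AP-1 letters and at 75 of the 633 without, and at most 1/1.5 at 47 and 207, where 16.1% and 28.1% of all members were called. The 45 peaks with CHOP-C/EBP letters had a median WT ratio of 0.856 and a median KO ratio of 0.735. Of the 45, 0 were called higher and 10 lower (22.2%, against 15% of all members). The 10 with CRE letters had a median of 0.915.

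Of the 905 members, 345 also overlapped an unstimulated WT peak off repeats, which gives a level before the stimuli. At these the median WT density was 15.7 tags per kb unstimulated, 18.6 with HDL and 15.9 with HDL + CpG. HDL gave the highest WT density of the 3 conditions at 189, HDL + CpG at 77 and unstimulated cells at 79. The ratio over unstimulated cells had a median of 1.11 with HDL, with 49 peaks at least 1.5 times higher and 9 lower, and of 0.965 with HDL + CpG, with 15 higher and 27 lower. The 2 ratios share the unstimulated library. The 560 members with no unstimulated peak had a median HDL + CpG over HDL ratio of 0.903, and the 345 had 0.871. An unstimulated peak was present at 147 of the 254 members kept by KOIN in neither condition, at 99 of the 316 kept in both, at 67 of the 222 kept with HDL only and at 32 of the 113 kept with HDL + CpG only.

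Shared peaks were then grouped by the gene of the nearest start site, which need not be the gene that a peak regulates. Beside the counts below, 1.88% of all members were called higher and 15% lower.

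Of 45 bZIP genes searched, 11 were nearest to 16 shared peaks, with 0 called higher, 2 lower and a median WT ratio of 0.801. Atf3 itself had 3. The peak 41.1 kb upstream of its start site, chr1:193047904-193048745, had 26 and 14.6 WT tags per kb (ratio 0.563, interval 0.391 to 0.809) against 6.02 and 5 in KO, the peak 47.5 kb upstream 20 and 16.1 against 6.28 and 5.02, and the promoter peak 20.8 and 15.9 against 11.5 and 8.04. All 3 were above KO in both conditions, and the promoter peak overlapped no KOIN peak. The deleted part of Atf3 is not given in the labels, so the KO tags at its promoter check nothing.
Ddit3, which encodes CHOP, had a promoter peak with nearly the same WT signal in both conditions (16.4 and 16.1 tags per kb, ratio 0.978, interval 0.69 to 1.4), whereas KO tags were 11.6 and 4.14. The WT/KO value was thus 1.42 with HDL and 3.89 with HDL + CpG, and the ratio of these values, 2.73 (interval 1.45 to 5.25), came from the KO libraries. Nfe2l2, the gene of NRF2, had 3 shared peaks with WT ratios of 0.636, 0.795 and 1.47, and Fos, an AP-1 subunit, had a promoter peak and a distal peak with ratios of 1.03 and 1.35. Maf, a macrophage bZIP factor, had a ratio of 1.27 (interval 0.876 to 1.84). Crem, Bach1, Nfe2l1 and Creb3l1 had ratios from 0.686 to 0.76, all with intervals that included 1.

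Of 40 cytokine and chemokine genes, 6 were nearest to 8 shared peaks, with 0 called higher, 2 lower and a median of 0.77. The peak 14.8 kb upstream of Ifnb1, the gene of interferon beta, at chr4:88183062-88183979, had 25.6 WT tags per kb with HDL and 17.8 with HDL + CpG (ratio 0.698, interval 0.506 to 0.962), against 20.1 in unstimulated WT cells. KO tags there were 6.42 and 3.21 tags per kb, so WT over KO was 3.98 and 5.56, and the region was kept by KOIN in both conditions. Ccl2, a monocyte chemoattractant, had 3 peaks with ratios of 0.634 at the promoter, 0.835 and 0.985. Ccl3, another chemokine, had 21 and 15.8 WT tags per kb at its promoter (ratio 0.751). Il1b and Osm had ratios of 0.79 and 0.662, and Il1a 1.18. Apart from Ifnb1, the intervals of these peaks included 1. At the 2 lower calls, the Ccl2 promoter and Osm, KO ratios were 1.21 and 0.587. The ratios of WT/KO values there were 0.526 and 1.13.

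Of 52 genes of Toll-like receptor and NF-kB signalling, 10 were nearest to 12 shared peaks, with 0 called higher, 4 lower and a median of 0.814. At Nfkbiz, which encodes the nuclear IkB family protein IkB-zeta, WT tags were 34.1 and 18 tags per kb (ratio 0.527, interval 0.39 to 0.711) with 8.19 and 6.02 in KO. At Socs1, a feedback inhibitor of cytokine signalling, they were 23.2 and 12.9 (ratio 0.556, interval 0.392 to 0.786), and KO tags were 4.19 and 7.31. Dusp1, a phosphatase of p38 and JNK, had 22.4 and 13.2 WT tags per kb (ratio 0.589, interval 0.412 to 0.835), and Ikbke, an IKK-related kinase, a ratio of 0.63 (interval 0.413 to 0.957). Another pair of Nfkbiz peaks had ratios of 0.773 and 0.94. Socs3 had 16.3 and 14.5 WT tags per kb (ratio 0.888). The receptors Tlr5, Tlr2 and Tlr4 had ratios of 0.676, 0.854 and 1.08, and the adaptor Ticam1 and the kinase Tbk1 1.09 and 0.995, all with intervals that included 1. The ratio of WT/KO values had a median of 0.686 over the 12 peaks. It was at least 1.5 at 1 and at most 1/1.5 at 6, where 16.1% and 28.1% of all members were called. The higher one was the Tlr4 first-intron peak (3.84, interval 1.32 to 13.5). Intervals lay below 1 at Socs1 (0.318, 0.164 to 0.617), Dusp1 (0.527, 0.285 to 0.979) and Socs3 (0.487, 0.258 to 0.916).

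Of 44 genes of lipid and cholesterol handling, 6 were nearest to 7 shared peaks, with 0 called in either direction and a median of 1.1. At Cd36, a scavenger receptor that takes up oxidized LDL, the first-intron peak at chr5:17385327-17386409 had 19.3 and 21.3 WT tags per kb (ratio 1.11, interval 0.811 to 1.51), 6.34 and 5.84 in KO and 14.2 in unstimulated WT cells. WT over KO was 3.04 and 3.65, so the region stood above KO in both conditions. Abca1, the cholesterol efflux transporter, had an intronic and an intergenic peak with ratios of 1.1 and 1.253, and its intronic peak had KO tags of 8 and 3.58. Plin2, a lipid droplet coat protein, had a ratio of 1.16, Lrp1, a lipoprotein receptor, 0.912, and Npc1 and Abcg1, of cholesterol export, 0.699 and 0.684. The interval of each of the 7 reached at least 1.

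Of 50 macrophage identity genes, 9 had 1 shared peak each, with 0 called in either direction and a median of 0.976. Lyz1, the gene of lysozyme, had 24.7 and 17.6 WT tags per kb (ratio 0.71, interval 0.516 to 0.975). KO tags were lower too at Lyz1 (KO ratio 0.582), and the ratio of WT/KO values was 1.22. The rest, Lair1, Csf2ra, Cx3cr1, Itgax, Lgals3, Fcgr3, Mrc1 and Runx1, had WT ratios from 0.921 to 1.17. Fcgr3, an Fc receptor, had 15.1 WT tags per kb in both conditions, with KO tags of 11 and 14.6.
Of 48 genes of integrins, adhesion and cytoskeleton, 6 were nearest to 9 shared peaks, with 1 called higher and 3 lower. The higher one was the Ptk2b peak above. The lower ones were Itgb5, an integrin subunit (ratio 0.55, interval 0.365 to 0.824), Rhob, a small GTPase (28.4 and 17.4 WT tags per kb, ratio 0.613, interval 0.448 to 0.835), and Fmnl2, a formin (ratio 0.649, interval 0.43 to 0.974). Itga5, the fibronectin receptor subunit, had 2 peaks with ratios of 0.871 and 1.17.

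Of 34 genes of endoplasmic reticulum and integrated stress, 5 had 1 shared peak each, with 0 called higher and 3 lower, and the median of 0.638 was the lowest of the lists with at least 3 shared peaks. Besides Herpud1, the promoter of Ppp1r15b, a subunit of the eIF2alpha phosphatase, had 24.9 and 14.9 WT tags per kb (ratio 0.598, interval 0.42 to 0.848), and the first intron of Slc7a5, an amino acid transporter, had 22.3 and 14.2 (ratio 0.638, interval 0.456 to 0.889). KO tags were lower too at these regions, 9.08 and 5.07 at Ppp1r15b and 7.96 and 5.32 at Slc7a5, and the ratios of WT/KO values were 1.07 and 0.955. Slc7a11, the cystine transporter, had a ratio of 0.856 at its promoter, and Ddit3 is given above.
Of 30 oxidative stress genes, 5 were nearest to 7 shared peaks, with 0 called higher and 1 lower, a peak of Nfe2l2. Fth1, ferritin heavy chain, and Gpx1, a glutathione peroxidase, had ratios of 0.848 and 0.831, and Srxn1, a sulfiredoxin, 1.06. Of 35 lysosome and autophagy genes, 4 had a shared peak, with 0 called higher and 1 lower, Slc15a3, a lysosomal peptide and histidine transporter (24.7 and 14.8 WT tags per kb, ratio 0.598, interval 0.441 to 0.812). Tfeb, the lysosomal master factor, had 0.754 and Hexa, a hexosaminidase subunit, 1.08.

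Of 36 genes of the cell cycle, survival and p53, 8 had 1 shared peak each, with 1 called higher and 3 lower. Btg2, an antiproliferative p53 target, had 13.5 and 20.3 WT tags per kb (ratio 1.51, interval 1.02 to 2.26), 6.33 and 2.92 in KO, and WT/KO values of 2.12 and 6.96. Mcl1, an anti-apoptotic BCL2 relative, had 31.9 and 20.4 WT tags per kb (ratio 0.638, interval 0.476 to 0.85), with 12.9 and 4.96 in KO. Ccnd3, cyclin D3, and Pmaip1, the gene of NOXA, had ratios of 0.525 and 0.634. KO tags were lower too at Ccnd3 (KO ratio 0.318) and higher at Pmaip1 (1.4), and the ratios of WT/KO values were 1.65 and 0.452. Bcl2, Cdk4, Mdm2 and Sgk1 lay between 0.858 and 1.03.
Of 32 genes of phosphatases and MAP kinase feedback, 7 had 1 shared peak each, with 0 called higher and 1 lower, the Dusp1 peak. Dusp6, a phosphatase of ERK, had 21.2 and 15.1 WT tags per kb (ratio 0.71, interval 0.509 to 0.99), Ptpn1, a tyrosine phosphatase, 0.809 and Map2k3, a p38 kinase kinase, 1.1. Of 35 Kruppel-like and other growth factor response genes, 13 were nearest to 15 shared peaks, with 1 called higher and 2 lower. The higher one was the Egr2 peak, whose called width differed between the lists as given above. The lower ones were Hif1a, the hypoxia factor (29 and 13.9 WT tags per kb, ratio 0.478, interval 0.332 to 0.69), and Egr1 (ratio 0.645). KO ratios at Hif1a and Egr1 were 0.888 and 0.624, and the ratios of WT/KO values were 0.539 and 1.03. Klf13 and Klf7 had 25.2 and 18.6, and 24.4 and 20.2, WT tags per kb, and Egr3 15.5 and 15.2.

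Lists of genes of other cell types were searched as well, with no share over all annotated genes to set the counts against. Of 36 neuronal genes 1 had a shared peak, Gad2, a glutamate decarboxylase, with 48.4 and 54.2 WT tags per kb and 47.5 and 45 in KO. Of 25 muscle genes 2 had one, Myh2 and Mef2c, which is also on the growth factor response list, with WT ratios of 0.657 and 0.672 and KO ratios of 2.12 and 1.55. Of 29 lymphocyte genes 2 had one, Il7r and Klrb1c, with ratios of 1.03 and 0.852, and the neutrophil and mast cell list had 0. Olfactory and vomeronasal receptor genes were nearest to 19 shared peaks at 9 genes, and 10 of these peaks were nearest to Vmn2r121 alone. Of the 19 peaks, 0 were called higher and 1 lower, and the median WT/KO values were 0.953 and 0.991. Olfr432 stood above KO in both conditions, with WT/KO of 2.64 with HDL and 2.42 with HDL + CpG. The lower call was Olfr410, with 3.77 and 0.682, and both genes were chosen after their values were seen.

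**Figure D5:**
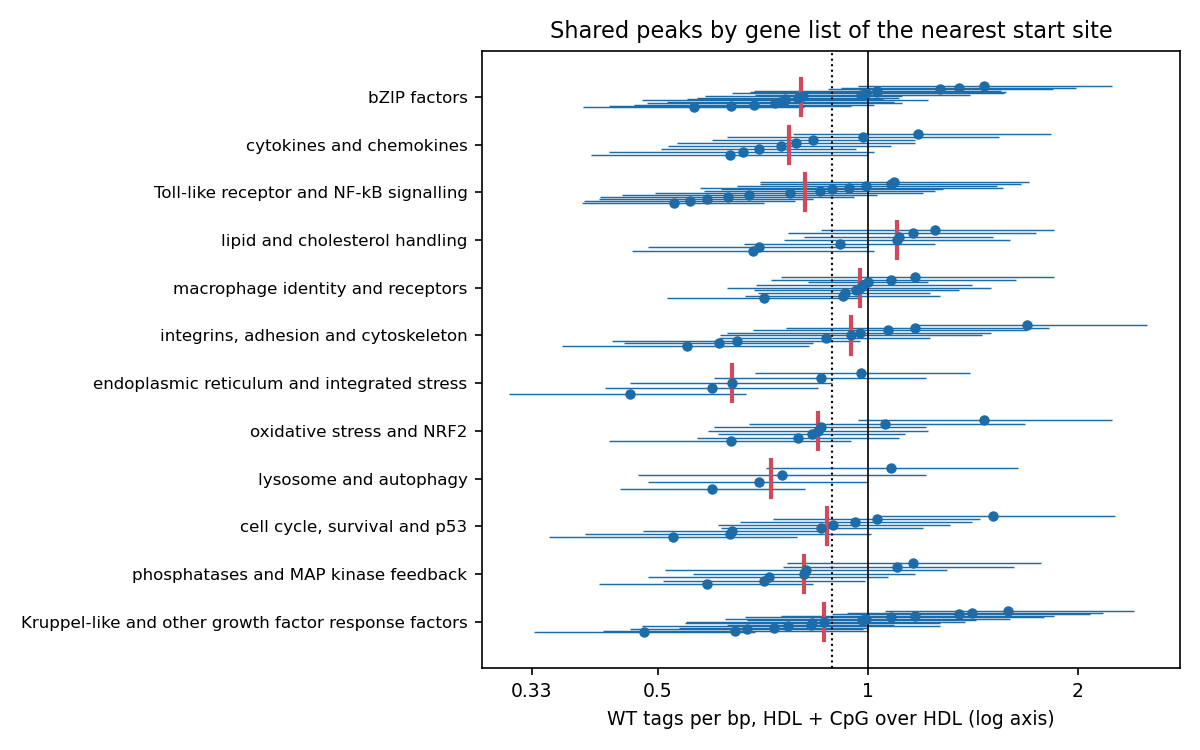
WT density ratio of HDL + CpG over HDL (log axis) for each shared peak of 12 gene lists, with exact 95% counting intervals. Red bars are list medians, the solid line is 1 and the dotted line is the median of all 905 members (0.888). The endoplasmic reticulum and integrated stress list has the lowest median of these (0.638) and the lipid and cholesterol list the highest (1.1).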

How the data were processed

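ATF3 ChIP-seq peak lists of WT and KO BMDMs were used. The authors pooled the replicates, aligned reads to mm9, called standard and KOIN peaks (MACS) and assigned each to a nearest start site (HOMER). Tools in the processing notes of the submitters are CASAVA 1.8, Bowtie 0.12.8, MACS 1.4.2 and HOMER 4.3. The signal in the deposited lists is tags per peak, scaled by the authors to 10000000 tags. The deposited score is the MACS peak score and was used for an alternative limit. Columns of the authors' fold between WT and KO, a corrected unstimulated list and a barcode list were not used.

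Reads were recovered from the header totals (all values within 0.005 tags of a whole read). Each HDL + CpG peak was paired with the HDL peak of largest overlap. Ratios of tags per bp have exact conditional 95% intervals (scipy 1.17.1, pandas 2.3.3, Python 3.11.15), tested on simulated data. Sequences come from NCBIM37, the assembly of mm9, where all 16164 peaks fit the chromosomes. Named peaks are the extremes among 630 eligible peaks, the densest, the promoter and non-KOIN peaks with most reads, up to 4 per gene list, and those of Cd36, Atf3 and Ifnb1; further peaks of the lists are given as list members. Of the 8 peaks with the highest ratio, the eighth is not reported here. The regions and 16 gene lists were chosen with earlier results of these data known.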

Additional observations from a re-analysis of the deposited data

How the results depend on the processing

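The main values were a median WT ratio of 0.888, 17 peaks higher and 136 lower, a median KO ratio of 0.99 and a median ratio of WT/KO values of 0.928. Overlap of 50% of both peaks, peaks that meet 1 peak alone, similar widths in both lists, the KO median as the centre, autosomes, and at least 30 WT reads moved none of the values these settings apply to beyond its interval or by 1.5 times, nor did adding 0.5 read to each count (0.923). A MACS score of at least 60 in both lists left 356 peaks, with 6 higher and 58 lower. Tags per peak, without division by width, gave 50 higher and 202 lower. WT minus KO tags, positive in both conditions at 758 peaks, gave a median of 0.837, 115 higher and 240 lower. On and off repeats together, 2385 peaks gave medians of 0.843 in WT, 1.22 in KO and 0.707 for WT/KO, with 45 higher and 477 lower. At 2-fold, 0 were higher and 17 lower. Centring on the WT median, chosen after the data were seen, gave 48 and 59, and leaving out the 54 regions with at least 200 KO reads, also chosen then, moved none of the 5. The AP-1 difference of median log2 ratios was 0.01, and -0.02 with 50 bp. The causes of these differences were not tested. No paired analysis was possible because the replicates were pooled and the labels carry no replicate numbers. A peak with the median of 53 reads cannot show differences much under the fold used.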
